A study of Homo sapiens with 4 samples.

Results

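The nuclear pore and nuclear export genes are 42 human genes chosen by name for their known place in the nuclear pore or in export from the nucleus, and all 42 were found by their current symbol among the 63241 genes of the deposited table. They hold 30 nucleoporin genes and 12 genes of export factors, and all 42 passed the filter for testing, a mean of at least 1 TPM over the libraries. TPM is a transcript's share of its library after correction for its length, scaled to the same total in each library. The study set 22Rv1 cells, a line of castration-resistant prostate cancer, given 40 nM JMC45 for 12 h, against 22Rv1 cells given the DMSO vehicle for 12 h. The submitters describe JMC45 as a compound against CDK9, the kinase that releases paused RNA polymerase II, and their title names a degrader, D45, assumed here to be this compound since target, dose and time match. RNA was selected by its poly(A) tail, and each group had 2 libraries. Nothing in the labels ties a library to its own culture, and p-values therefore rest on library spread that may be technical.

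Nuclear pores are large assemblies of nucleoporins that span the nuclear envelope. An inner ring and an outer ring form the scaffold, membrane proteins anchor it, and nucleoporins rich in phenylalanine-glycine repeats fill the channel through which transport receptors pass. Messenger RNA is packaged by the TREX complex and leaves through the pore bound to the heterodimer of NXF1 and NXT1, whereas XPO1, XPO5 and XPOT are exportins driven by the GTPase Ran.

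The labelled cell type was checked against its markers first. The luminal prostate markers KLK3, HOXB13, KRT8, KRT18 and EPCAM were detected in every library. HOXB13, a prostate lineage factor, had 10.75 and 9.89 TPM in JMC45, against 94.95 and 96.56 TPM in vehicle, and KRT8, a luminal keratin, had 160.33 and 165.44 TPM in JMC45, against 198.19 and 208.20 TPM in vehicle. KLK3, the gene of prostate-specific antigen, was higher in JMC45, at 14.21 and 11.47 TPM, against 10.09 and 10.09 TPM in vehicle. The summed leukocyte markers lay between 0.30 and 0.57 TPM over all libraries, with CD3E at 0 in each, and the endothelial markers summed to at most 0.01 TPM. The 3 fibroblast markers summed to 1.52 and 3.00 TPM in JMC45, against 3.55 and 3.15 TPM in vehicle. Mitochondrially encoded transcripts took 26.6% and 29.3% of TPM in JMC45, against 20.4% and 20.1% in vehicle, and the part of that difference in the results below was not tested beyond the scalings given. Because the values are shares of bulk libraries, fewer cells of a kind and less RNA per cell cannot be told apart, nor can a change in total RNA be seen.

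Almost every pore and export transcript had a lower TPM after JMC45. Of the 42 genes, 41 fell in the limma test at a Benjamini-Hochberg adjusted p below 0.05 over all tested genes, which is 97.6% of them, and none rose. The background was nearly as one-sided, since 80.7% of the 14018 tested genes were called lower and 4.25% higher. All 42 genes had both JMC45 libraries below both vehicle libraries, and so did 85.7% of all tested genes. The size of the decrease differed more from the background. As log2(TPM + 1), 34 of the 42 genes (81.0%) were both called and lower by 2-fold or more, against 54.3% of all tested genes. The 34 were counted on changes rounded to 2 decimals, and XPOT passed only by that rounding, so 81.0% is slightly too high. These shares are not matched for level. The added 1 understates changes of low genes, and tested genes went down to a mean of 1 TPM. The lowest member had 12.77 and 11.69 TPM in vehicle, and the part of level in this contrast was not tested. The median log2 change was -1.54 for the 42 genes and -1.10 for all tested genes, and 30 of the 42 lay below that general median. The difference between these medians, -0.44, was -0.28 with a pseudocount of 0.1, -0.25 after each library was divided by a size factor and -1.25 without the filter on low values. Together the 42 genes held 931.8 and 910.9 TPM in JMC45, against 2337 and 2218 TPM in vehicle, a ratio of means of 0.405. The groups did not overlap, and the two-sided exact permutation test gave p = 0.33, the smallest it can give with 2 libraries against 2.

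**Figure D1:**
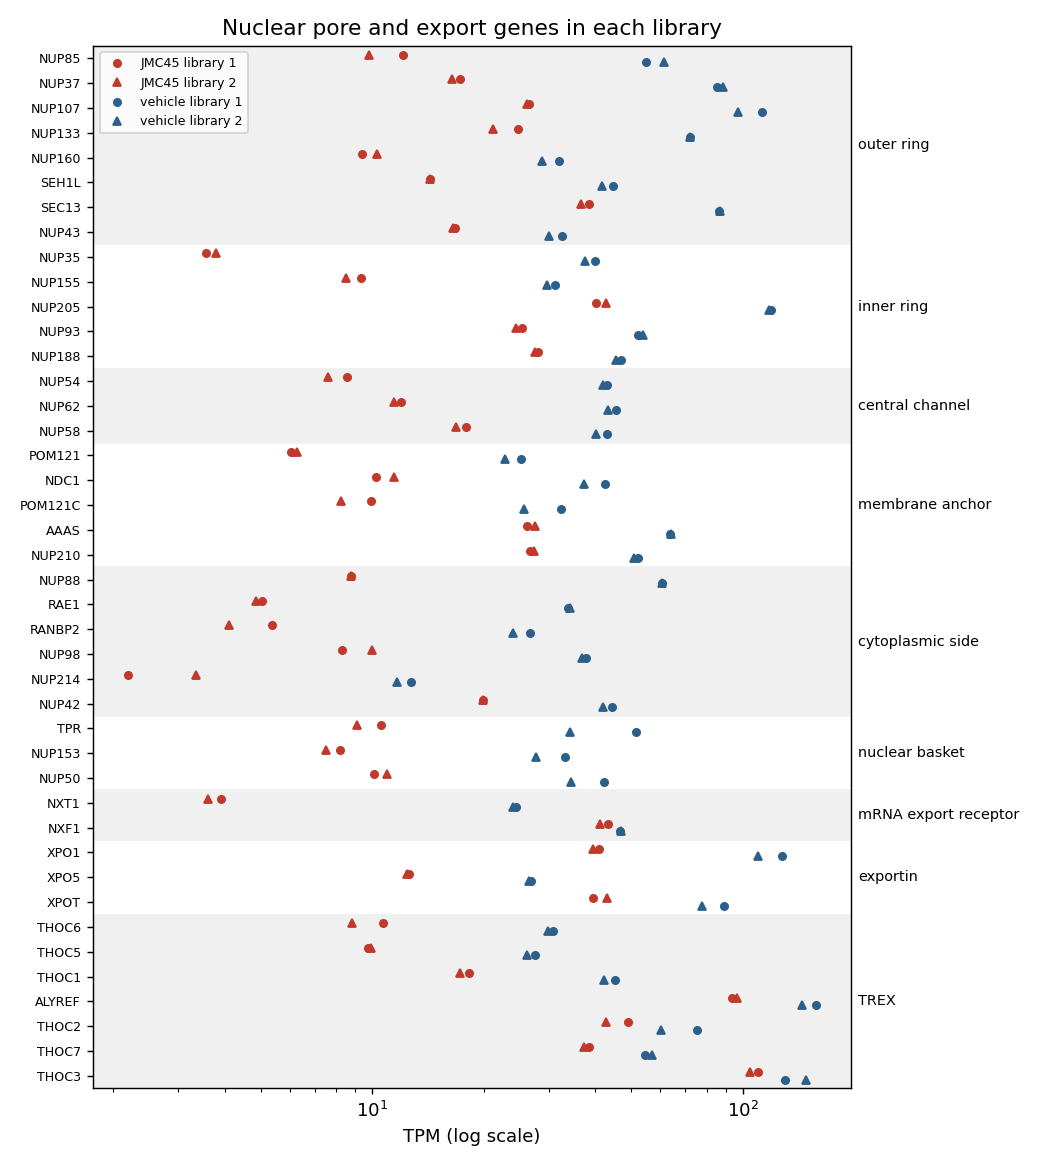
TPM of each of the 42 genes (log axis) in the JMC45 libraries (red) and the vehicle libraries (blue), with circles for replicate 1 and triangles for replicate 2, grouped by role. In every row the red points lie left of the blue ones, with NUP35 furthest apart and NXF1 closest.

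The general decrease is tied to the scale, so each gene was also tested after size-factor scaling, which divides each library by the median of its ratios to a typical library and puts the median change of all tested genes at -0.02. On that scale 20 of the 42 genes fell (47.6%) and 9 rose (21.4%), against 35.5% of all tested genes called lower and 34.9% called higher. The change was above 0 for 16 of the 42 on that scale, and the log2 ratio of their summed levels was 0.05, against -1.31 on TPM. After quantile normalization 25 fell (59.5%) and 4 rose (9.52%), against 32.8% and 33.6% of all tested genes. Within the 42 genes, the nucleoporins and the export factors stood at different places in this order. Of the 30 nucleoporins, all fell on TPM (median -1.78), whereas size-factor scaling left 19 that fell, 3 that rose and 8 not called. Of the 12 export factors, 11 fell on TPM (median -1.02), whereas size-factor scaling left 1 that fell, 6 that rose and 5 not called. The difference between these groups was not tested, and it depends on which export genes are listed. Outside the 42, the other exportins and export adaptors had a median of -1.94 on TPM, and size-factor scaling left 4 that fell and 0 that rose. The other mRNA export factors outside the 42 had a median of -0.98 on TPM, and size-factor scaling left 5 that fell and 9 that rose.

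**Figure D2:**
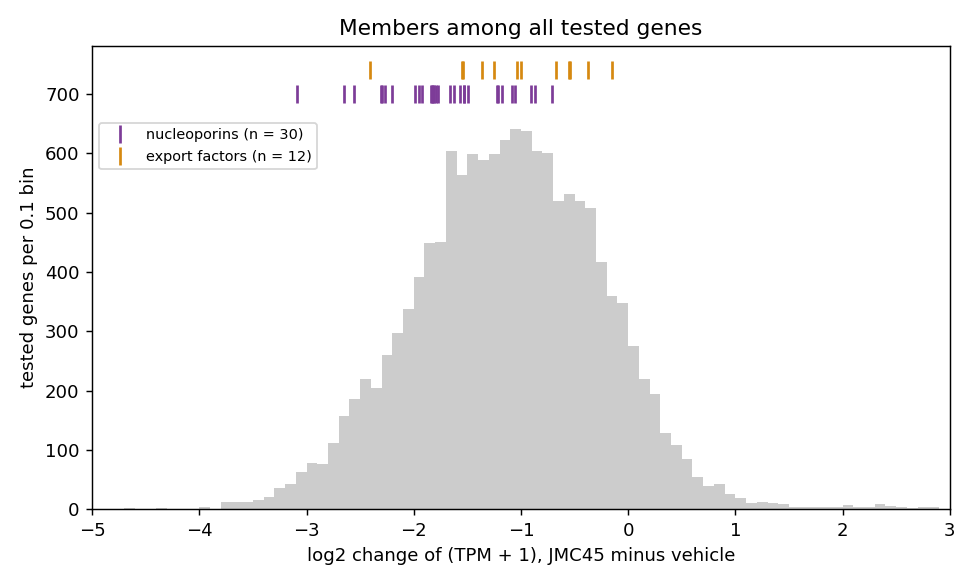
Number of tested genes by log2 change of (TPM + 1), JMC45 minus vehicle (grey), with 1 tick above it for each nucleoporin and each export factor. The nucleoporin ticks run from -3.09 to -0.71 and the export factor ticks from -2.41 to -0.15, around a general median of -1.10.

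The inner ring, the scaffold layer closest to the channel, held the member with the largest decrease. NUP35 (ENSG00000163002), a membrane-binding inner ring protein also known as NUP53, had 3.56 and 3.78 TPM in JMC45, against 39.90 and 37.55 TPM in vehicle. Its JMC45 level was 9.48% of the vehicle level, and the log2 change was -3.09 (SE 0.10, adjusted p = 9.82e-06 in limma). Of all tested genes, 1.21% had a lower change. It also fell after size-factor scaling (-1.88) and quantile normalization (-1.84). NUP188 (ENSG00000095319), a large scaffold protein of the same ring, had 28.03 and 27.53 TPM in JMC45, against 46.88 and 45.60 TPM in vehicle. Its libraries did not overlap between groups, and its log2 change of -0.71 (SE 0.07) was the smallest decrease in the ring. After size-factor scaling NUP188 rose by 0.60, and after quantile normalization by 0.30. Between them lay NUP155 (-1.66), NUP205 (-1.49) and NUP93 (-1.06), the last of which anchors the channel nucleoporins. All 5 inner ring genes fell on TPM, and after size-factor scaling 2 fell and 1 rose.

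The outer ring is built from the Y-shaped complex that coats the pore membrane. Each gene was given only 1 role here, and the 8 genes assigned to the outer ring fell on TPM (median -1.58). After size-factor scaling 4 fell and 1 rose, and after quantile normalization 7 fell and 1 rose. NUP85 (ENSG00000125450), in a short arm of the Y, had 12.13 and 9.83 TPM in JMC45, against 54.87 and 61.32 TPM in vehicle. Its log2 change was -2.31 (SE 0.12, limma adjusted p = 1.7e-05), close to that of NUP37 (-2.30). NUP43 (ENSG00000120253), a small peripheral subunit, had 16.77 and 16.55 TPM in JMC45, against 32.53 and 30.03 TPM in vehicle. The NUP43 change of -0.87 (SE 0.08) was the smallest of the complex, and it rose by 0.43 after size-factor scaling and by 0.30 after quantile normalization. NUP107 and NUP133, partners in the stem of the Y, changed by -1.95 and -1.62, and NUP160 by -1.53. SEH1L and SEC13, beta-propeller proteins that also act outside the pore, changed by -1.53 and -1.18, and neither was called after size-factor scaling.

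The 3 genes of the central channel, which encode the repeat-rich proteins of the NUP62 complex, all fell on TPM. NUP54 (ENSG00000138750) had 8.53 and 7.58 TPM in JMC45, against 43.10 and 42.09 TPM in vehicle, a log2 change of -2.27 (SE 0.09). NUP58 (ENSG00000139496) had 17.90 and 16.88 TPM in JMC45, against 42.94 and 40.24 TPM in vehicle, a log2 change of -1.21 (SE 0.08). These transcripts had nearly equal TPM in vehicle and stood apart in JMC45. NUP62 lay between them at -1.84. After size-factor scaling NUP54 and NUP62 fell, the second of them by 0.55, and NUP58 was not called (0.09).

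Genes assigned here to the cytoplasmic side of the pore, where export complexes are taken apart, had the lowest median log2 change of the 9 roles, at -2.06. NUP88 (ENSG00000108559), the partner of NUP214, had 8.75 and 8.79 TPM in JMC45, against 60.46 and 60.53 TPM in vehicle. The NUP88 libraries were nearly identical within each group, and the log2 change was -2.65 (SE 0.08, limma adjusted p = 9.25e-06). RAE1, an mRNA export factor that binds NUP98, changed by -2.56. RANBP2, the large filament protein with SUMO ligase activity, changed by -2.20, and NUP214 by -1.83. NUP214 was the least abundant of the 42 transcripts in every library, at 2.19 and 3.35 TPM in JMC45, against 12.77 and 11.69 TPM in vehicle. NUP98 (ENSG00000110713), which also works away from the pore on chromatin, had 8.30 and 9.97 TPM in JMC45, against 37.83 and 36.82 TPM in vehicle, a log2 change of -1.92. NUP42 (ENSG00000136243), which stimulates the export helicase together with GLE1, had 19.86 and 19.93 TPM in JMC45, against 44.34 and 41.94 TPM in vehicle. Its change of -1.08 was close to the general median, and it was not called after size-factor scaling (0.23) or after quantile normalization (0.00). Of these 6 genes, all fell on TPM and 5 after size-factor scaling.

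The 3 genes of the nuclear basket, which faces chromatin, had changes between -1.99 and -1.77. TPR (ENSG00000047410), its filament protein, had 10.55 and 9.09 TPM in JMC45, against 51.66 and 34.12 TPM in vehicle, a log2 change of -1.99. Its vehicle libraries lay further apart, relative to their mean, than those of any other member, and its SE of 0.20 was the largest of the 42. NUP50 (ENSG00000093000), which helps release importin cargo, had 10.13 and 10.95 TPM in JMC45, against 42.31 and 34.48 TPM in vehicle, a log2 change of -1.77 (SE 0.12). NUP153, which tethers the basket to the ring, changed by -1.82. All 3 fell on TPM, after size-factor scaling (-0.71 to -0.48) and after quantile normalization.

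The membrane anchor had 5 genes that fell on TPM (median -1.57), of which 3 fell and 1 rose after size-factor scaling. POM121 (ENSG00000196313), a transmembrane nucleoporin, had 6.03 and 6.27 TPM in JMC45, against 25.29 and 22.88 TPM in vehicle, a log2 change of -1.81 (SE 0.10). Its close copy POM121C changed by -1.57. Of the 75-base words of the longest POM121C transcript in GENCODE release 29, 40.4% also occur in POM121 transcripts, so how reads were divided between them is uncertain. Their summed level was 15.96 and 14.50 TPM in JMC45, against 57.59 and 48.62 TPM in vehicle. NUP210 (ENSG00000132182), a membrane glycoprotein of the pore, had 26.71 and 27.36 TPM in JMC45, against 52.32 and 51.06 TPM in vehicle. NUP210 fell on TPM (-0.91, SE 0.07) and rose by 0.41 after size-factor scaling. NDC1, the anchor of the scaffold, changed by -1.79, and AAAS, the NDC1-bound protein mutated in Allgrove syndrome, by -1.22.

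**Figure D3:**
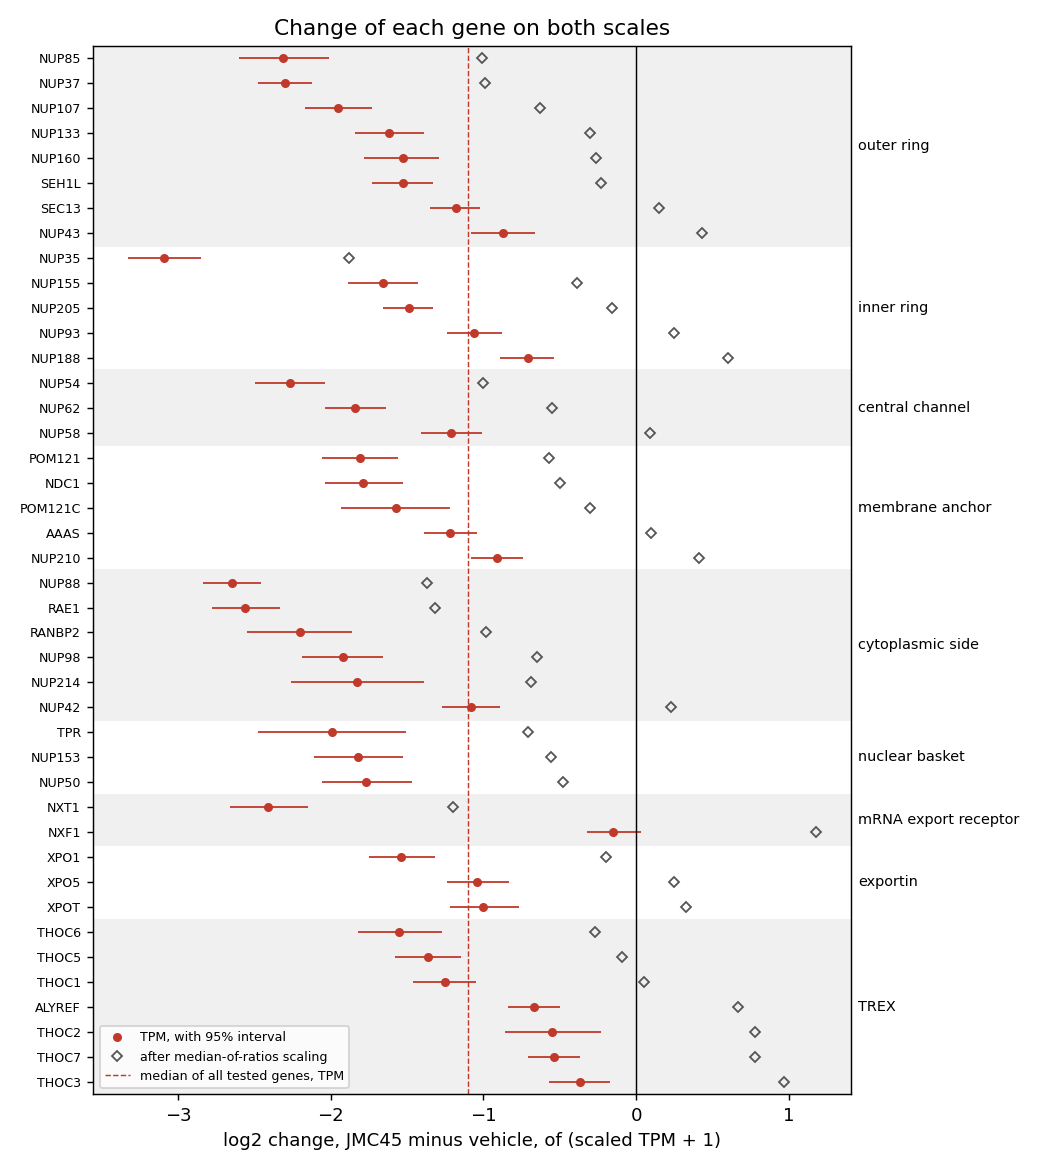
Log2 change of each gene, JMC45 minus vehicle, on TPM with its 95% interval from limma (red) and after size-factor scaling (open diamonds), grouped by role; the dashed line is the median of all tested genes on TPM. NUP35 is furthest left on both scales, at -3.09 and -1.88, and NXF1 furthest right, at -0.15 and 1.18.

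The subunits of the heterodimer that carries bulk mRNA through the pore lay far apart in the range. NXF1 was at its upper end, whereas NUP35, NUP88 and RAE1 fell more than NXT1. NXF1 (ENSG00000162231), its large subunit, had 43.32 and 41.14 TPM in JMC45, against 46.68 and 47.01 TPM in vehicle. Its libraries did not overlap between groups, but the log2 change of -0.15 (SE 0.07, 95% interval -0.32 to 0.03) did not pass in limma (adjusted p = 0.0938), and NXF1 was the only member not called on TPM. Of all tested genes, 86.9% had a lower change than NXF1, and it rose by 1.18 after size-factor scaling and by 0.81 after quantile normalization. NXT1 (ENSG00000132661), the small subunit, had 3.90 and 3.61 TPM in JMC45, against 24.46 and 23.93 TPM in vehicle. NXT1 fell by 2.41 on the log2 scale (SE 0.10, limma adjusted p = 1.17e-05), and it also fell after size-factor scaling (-1.20) and quantile normalization (-1.08).

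Ratios between transcripts of 1 library do not depend on a factor per library, so partner transcripts were set against each other, with the partners chosen after their values were seen. The ratio of NXF1 to NXT1 was 11.1 and 11.4 in JMC45, against 1.91 and 1.96 in vehicle. The ratio of NUP93 to NUP35 was 7.12 and 6.45 in JMC45, against 1.31 and 1.44 in vehicle, and that of NUP188 to NUP35 was 7.87 and 7.28 in JMC45, against 1.18 and 1.21 in vehicle. The NUP58 to NUP54 ratio was 2.10 and 2.23 in JMC45, against 0.996 and 0.956 in vehicle. The NUP98 to RAE1 ratio was 1.65 and 2.05 in JMC45, against 1.12 and 1.08 in vehicle. For THOC2 to THOC1 it was 2.68 and 2.49 in JMC45, against 1.67 and 1.42 in vehicle. The NUP88 to NUP214 ratio was lower in JMC45, at 4.00 and 2.62, against 4.74 and 5.18 in vehicle, and so was that of POM121 to POM121C, at 0.607 and 0.762 in JMC45, against 0.783 and 0.889 in vehicle. Because the partners were picked with their values known, these ratios are a description with no test. They are of TPM and say nothing of protein.

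**Figure D4:**
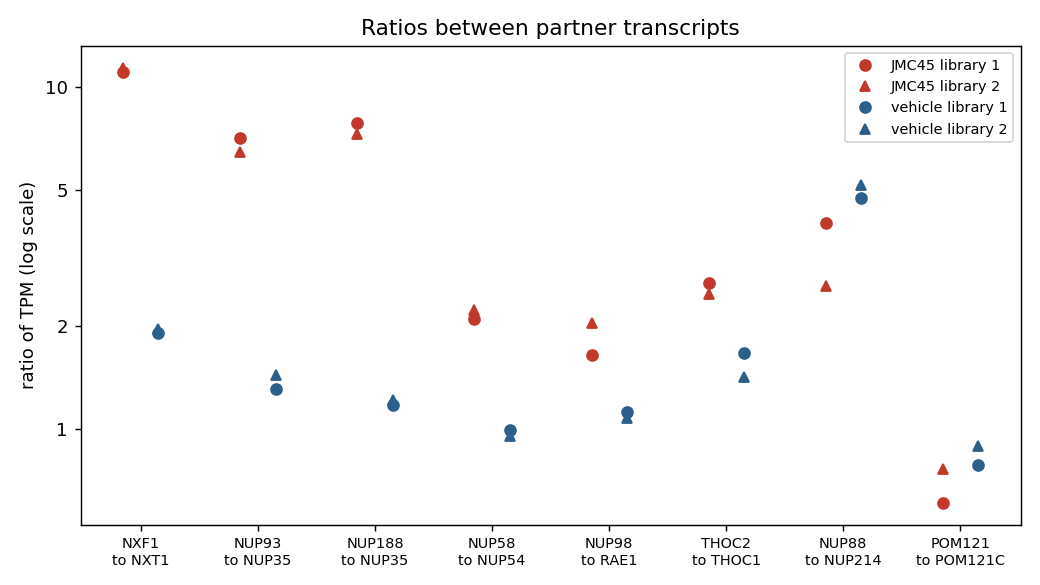
Ratio of TPM between partner transcripts (log axis) in each JMC45 library (red) and each vehicle library (blue), with circles for replicate 1 and triangles for replicate 2. NUP188 to NUP35 (7.87 and 7.28 in JMC45 against 1.18 and 1.21 in vehicle) and NXF1 to NXT1 (11.1 and 11.4 in JMC45 against 1.91 and 1.96 in vehicle) are the furthest apart.

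The 3 exportin genes all fell on TPM, and after size-factor scaling none fell and 1 rose. XPO1 (ENSG00000082898), which exports proteins with leucine-rich signals and some RNAs, had 40.93 and 39.55 TPM in JMC45, against 127.53 and 110.32 TPM in vehicle. The XPO1 change was -1.54 (SE 0.09, limma adjusted p = 2.17e-05). It was not called after size-factor scaling (-0.20) but fell after quantile normalization (-0.80). XPOT (ENSG00000184575), the tRNA exportin, had 39.44 and 43.14 TPM in JMC45, against 89.06 and 77.89 TPM in vehicle, so that it fell by 1.00 on the log2 scale (SE 0.09) and rose by 0.33 after size-factor scaling. XPO5, the exportin of microRNA precursors, changed by -1.04.

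The 7 listed TREX genes had the smallest median decrease of the roles, at -0.67, and they were divided. THOC6 (ENSG00000131652) had 10.67 and 8.82 TPM in JMC45, against 30.80 and 29.83 TPM in vehicle, a log2 change of -1.55 (SE 0.11). THOC5 and THOC1 lay close to it, at -1.36 and -1.25. THOC3 (ENSG00000051596) had 109.95 and 104.66 TPM in JMC45, against 130.16 and 148.38 TPM in vehicle. It fell on TPM by 0.37 on the log2 scale (SE 0.08, limma adjusted p = 0.00577), and 80.1% of all tested genes had a lower change. The longest THOC3 transcript shares 54.8% of its 75-base words with ENSG00000170089, a pseudogene that the table lists at 0 in every library, so its level is uncertain where reads could be split. ALYREF, the adaptor that recruits NXF1, changed by -0.67, THOC2, the scaffold of the THO core, by -0.55, and THOC7 by -0.54. After size-factor scaling none of these 7 fell, and ALYREF (0.67), THOC2 (0.78), THOC7 (0.78) and THOC3 (0.97) rose. All 7 fell on TPM, and after quantile normalization THOC6 fell and THOC7 rose. Outside this list, CHTOP, a TREX-associated adaptor, fell after size-factor scaling (-1.47), and DDX39B, the TREX helicase, rose (1.68).

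Levels of the 42 genes kept much of their order. The lowest, median and highest member stood at 2.19, 13.5 and 109.95 TPM in JMC45 replicate 1 and at 3.35, 13.4 and 104.66 TPM in JMC45 replicate 2, against 12.77, 45.0 and 157.97 TPM in vehicle replicate 1 and 11.69, 42.0 and 148.38 TPM in vehicle replicate 2. No member was below 10 TPM in vehicle, whereas 14 and 16 were in the JMC45 libraries. Spearman's rho between the mean JMC45 and mean vehicle levels was 0.81 across the 42 genes, which share these libraries and are not independent replicates. Gene span and exon number had little rank correlation with the changes: rho with the log2 change was 0.00 for span and 0.04 for the largest number of exons in a transcript, against 0.06 and 0.10 over 11570 tested protein-coding genes. The rank correlation of the log2 change with the vehicle level was 0.32 for the members and -0.08 for all tested genes. The members had a median span of 53.6 kb, against 32.8 kb for those protein-coding genes. The 14 members with the shortest span had a median change of -1.39 and the 14 with the longest -1.60.

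The promoter windows of NUP35, NUP88, NXT1 and NXF1 are printed. NUP35 and NUP88 had the lowest changes, and NXT1 and NXF1 are partners whose changes lay far apart. Each is a window of 300 bases, most of them upstream, around a gene start in RefSeq, build GRCh38.p14, and is written in the direction of the gene. Capitals mark exact matches, on either strand, to CACGTG for the E-box bound by MYC, CCGGAAG for ETS factors, TATAAA for the TATA box, CCAAT for NF-Y, GGGCGG for SP1, GCATGCGC for NRF1 or AAGATGG for YY1, and no matches overlap in these windows. The windows are chr2:183124193-183124492 on the plus strand for NUP35, chr17:5419613-5419912 on the minus strand for NUP88, chr20:23350541-23350840 on the plus strand for NXT1 and chr11:62805391-62805690 on the minus strand for NXF1.
NUP35: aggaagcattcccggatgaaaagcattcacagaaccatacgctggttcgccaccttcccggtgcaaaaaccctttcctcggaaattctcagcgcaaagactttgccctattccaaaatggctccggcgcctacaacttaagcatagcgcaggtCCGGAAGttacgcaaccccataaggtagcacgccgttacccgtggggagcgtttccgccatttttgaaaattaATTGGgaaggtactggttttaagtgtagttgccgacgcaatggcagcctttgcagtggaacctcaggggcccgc
NUP88: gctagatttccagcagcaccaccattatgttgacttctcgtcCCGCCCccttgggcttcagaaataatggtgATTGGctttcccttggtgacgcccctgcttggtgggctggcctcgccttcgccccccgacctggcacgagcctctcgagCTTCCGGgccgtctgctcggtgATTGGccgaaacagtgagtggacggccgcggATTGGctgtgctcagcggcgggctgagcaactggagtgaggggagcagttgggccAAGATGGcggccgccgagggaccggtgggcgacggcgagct
NXT1: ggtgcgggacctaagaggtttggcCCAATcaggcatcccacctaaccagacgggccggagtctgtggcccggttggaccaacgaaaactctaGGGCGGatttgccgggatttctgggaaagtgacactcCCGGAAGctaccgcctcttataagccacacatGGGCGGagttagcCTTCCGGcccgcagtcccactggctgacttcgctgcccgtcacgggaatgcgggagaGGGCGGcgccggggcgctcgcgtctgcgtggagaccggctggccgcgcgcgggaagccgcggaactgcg
NXF1: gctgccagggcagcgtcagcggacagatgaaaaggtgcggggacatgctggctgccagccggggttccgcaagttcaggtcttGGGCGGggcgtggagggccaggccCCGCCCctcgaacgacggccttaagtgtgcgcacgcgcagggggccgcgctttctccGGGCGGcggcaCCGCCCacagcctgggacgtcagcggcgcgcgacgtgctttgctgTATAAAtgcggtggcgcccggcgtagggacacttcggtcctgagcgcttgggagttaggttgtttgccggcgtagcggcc

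The NUP35, NUP88 and NXT1 windows hold the ETS letters and at least 1 CCAAT box, and the NXF1 window holds neither but has a TATA box 30 bases before the start and 4 SP1 boxes. The window of RAE1, whose change of -2.56 lies between those of NUP88 and NXT1, also holds neither the ETS letters nor a CCAAT box. That of ALYREF, whose change was only -0.67, holds both. A promoter was found for 40 of the 42 members, with the first listed start taken for each gene, and those of NUP43 and THOC7 were not used here. The ETS letters were in 18 of the 40 windows (45.0%), against 20.6% of the windows of 10006 tested genes with an entry and 10.7% of all 27305. The members with them had a median log2 change of -1.67, and the 22 without them -1.54. TATAAA was in 2 windows, those of NXF1 and ALYREF, which is 5.00%, against 5.35% for tested genes and 12.0% for all; their median change was -0.41, against -1.60 for the other 38. CCAAT was in 15 windows (37.5%, against 37.6% for tested genes and 35.7% for all), and these members had a median change of -1.92, against -1.53 for the other 25. GGGCGG was in 23 (57.5%, against 71.1% for tested genes and 44.6% for all), with a median change of -1.36, against -1.83 for the other 17. NRF1 letters were in 4 (10.0%, against 5.90% and 3.27%; median -1.81, against -1.54 without), YY1 letters in 5 (12.5%, against 7.97% and 6.06%; median -1.49, against -1.62), and the E-box in 2 (5.00%, against 10.6% and 7.43%; median -1.24, against -1.56). A match is a run of letters in this window and shows no binding.

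Outside the 42 genes, 69 other genes of nuclear transport were listed, of which 66 were tested. On TPM 58 fell (87.9%) and 4 rose, with a median of -1.21, against 80.7% of all tested genes called lower and 4.25% called higher. Size-factor scaling gave 24 that fell and 24 that rose (36.4% each), close to the 35.5% and 34.9% of all tested genes. All 7 genes of other exportins and export adaptors fell, with a median of -1.94, among them PHAX, the adaptor for small nuclear RNA (-2.53), and CSE1L, which recycles importin alpha (-1.98). The importin genes ran from KPNA2, an importin alpha (-2.83), to TNPO2, a transportin (0.28), and KPNB1, importin beta, was at -1.05. The 6 genes of the Ran cycle all fell on TPM, but 5 of them rose after size-factor scaling, and RCC1, the exchange factor for Ran on chromatin, was the one that fell on both (-2.07 and -0.75). Ran itself (RAN) was at 556.97 and 482.62 TPM in JMC45, against 1033.5 and 1002.29 TPM in vehicle.

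The 4 lowest of these genes were KPNA2, SENP2, TOR1A and CHTOP. KPNA2 had 23.27 and 23.68 TPM in JMC45, against 174.07 and 171.32 TPM in vehicle. CHTOP, a TREX-associated adaptor of NXF1, had 15.30 and 15.29 TPM in JMC45, against 115.65 and 106.01 TPM in vehicle, a log2 change of -2.78. SENP2, a SUMO protease found at the pore, had 3.76 and 2.80 TPM in JMC45, against 32.93 and 24.64 TPM in vehicle, a log2 change of -2.79. TOR1A, the torsin of the nuclear envelope, had 4.98 and 4.12 TPM in JMC45, against 36.30 and 38.36 TPM in vehicle, also a change of -2.79. These 4 were picked as the lowest, and they had both JMC45 libraries below both vehicle libraries, as did 85.7% of all tested genes. They also fell after size-factor scaling (-1.60 to -1.47). The 4 that rose on TPM were LENG8 (0.54), DDX39B (0.33), TNPO2 (0.28) and CETN2 (0.23), a TREX-2 component. DDX39B, the helicase of the TREX complex, had 385.83 and 358.67 TPM in JMC45, against 301.52 and 290.52 TPM in vehicle. LENG8 had 33.88 and 27.56 TPM in JMC45, against 22.25 and 19.40 TPM in vehicle. TNPO2 had 51.17 and 56.43 TPM in JMC45, against 46.13 and 41.86 TPM in vehicle, and CETN2 had 54.74 and 55.84 TPM in JMC45, against 48.58 and 45.61 TPM in vehicle. None of the 4 overlapped between groups, which adds no support because they were picked as the highest in these same libraries. With the mitochondrially encoded total held equal none of the 4 was called, and DDX39B, TNPO2 and CETN2 were below 0 there. Without vehicle replicate 2 only DDX39B was still called, without JMC45 replicate 2 TNPO2 and CETN2 were not, and without JMC45 replicate 1 CETN2 was not. In limma without the intensity trend CETN2 (adjusted p = 0.0719) and TNPO2 (adjusted p = 0.0586) were not called, nor was TNPO2 with low genes kept in (adjusted p = 0.0565).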

How the data were processed

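Poly(A)-selected RNA of 22Rv1 cells was sequenced in 2 JMC45 and 2 vehicle libraries. The authors deposited TPM per Ensembl gene and library, per the file headers. StringTie, HISAT2 and fastp appear in the submitters' processing notes with no version or role. No source used here names the genome build, the annotation or the use of strand. Levels of overlapping genes are therefore uncertain. TPM keeps no depth, so depth is unknown and no counting interval is given. Of 63291 lines, 50 without a gene and values were left out.

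Values were tested as log2(TPM + 1), which understates changes of low genes, for the 14018 genes that averaged 1 TPM or more. Tests used limma 3.58.1 (R 4.3.3) with an intensity trend and were two-sided, with p-values adjusted over all tested genes by Benjamini-Hochberg at 0.05; "rose" and "fell" mean past that threshold. The procedure was tested on simulated data in which few genes changed, in either direction. A general decrease like that in these libraries was not simulated, so the test does not cover it. The columns named CTL were taken as vehicle by name and number. Members and lists were chosen with earlier results of these data known. Every member was named; library values were given for the highest and lowest member of each role, XPO1, NXF1, NUP98 and, beyond the rule, NUP214, and for the 4 lowest and 4 highest other transport genes. Other genes were named after their values were seen. Size-factor scaling is median-of-ratios scaling of TPM. Alternatives covered pseudocount, filter, scaling, trend, replicate block and each library left out. Shared 75-base words (taken every 5 bases of the longest coding transcript), spans and exons came from GENCODE release 29. Python 3.11.15, pandas 2.3.3, numpy 2.4.6, scipy 1.17.1 and matplotlib 3.10.9 were used. Some luminal markers are not reported here.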

Additional observations from a re-analysis of the deposited data

How the results depend on the processing

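All 41 decreases among the 42 pore and export genes were called, and no increase, with a pseudocount of 0.1, without the filter, at a mean TPM of at least 5, without the intensity trend, without the mitochondrially encoded genes and without any 1 library (41 to 41 lower, 0 to 0 higher). Holding the mitochondrially encoded total equal called 42 lower, NXF1 included. Median-of-ratios (size-factor) scaling gave 20 lower and 9 higher, and quantile normalization 25 and 4. Signs turned for 16 members under median-of-ratios scaling: NXF1 (1.18), THOC3 (0.97), THOC2 and THOC7 (0.78 each), ALYREF (0.67), NUP188 (0.60), NUP43 (0.43), NUP210 (0.41), XPOT (0.33), NUP93 and XPO5 (0.25 each), NUP42 (0.23), SEC13 (0.15), AAAS (0.10), NUP58 (0.09) and THOC1 (0.05). They turned for 9 under quantile normalization: NXF1 (0.81), THOC7 (0.38), THOC2 (0.31), NUP43 and NUP188 (0.30 each), XPO5 (0.21), THOC3 (0.15), NUP210 (0.08) and NUP42 (0.00). Both scalings remove the general median by construction; for other settings the cause was not tested. The members' median minus that of all tested genes, -0.44, was -0.28 with a pseudocount of 0.1, -1.25 without the filter, -0.25 after median-of-ratios scaling, -0.39 without the mitochondrially encoded genes, -0.52 with their total held equal, and -0.47 to -0.43 without 1 library. This difference was -0.42 after quantile normalization and -0.41 at a mean TPM of at least 5. The log2 ratio of the members' mean summed TPM, -1.31, was 0.05 after median-of-ratios scaling, -1.16 without the mitochondrially encoded genes, -1.76 with their total held equal, and -1.34 to -1.27 without 1 library.

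Of the other transport genes, median-of-ratios scaling gave 24 lower and 24 higher, quantile normalization 31 and 15, the mitochondrially encoded total held equal 62 and 0, no intensity trend 56 and 2, and no filter 58 and 3. Without 1 library they were 57 to 59 lower and 1 to 4 higher, with 1 higher without vehicle replicate 2 and 2 without JMC45 replicate 2. With the mitochondrially encoded total held equal CETN2 was -0.23, TNPO2 -0.17 and DDX39B -0.13. RGPD6 was 0.52 and RGPD8 0.27 after median-of-ratios scaling, and 0.68 and 0.51 after quantile normalization. With the replicate number as a block 41 members were lower and 0 higher, and 58 and 4 of the other transport genes; same-numbered libraries did not deviate together (r = -0.047), so the numbers were not taken to pair them. Depth limits cannot be given from TPM.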

Other observations

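RANBP2 has a family of partial copies, the RGPD genes, and their transcripts differed from RANBP2 and from each other. They were singled out after their values were seen. RGPD2 had 4.77 and 5.07 TPM in JMC45, against 2.25 and 1.70 TPM in vehicle. RGPD2 rose on the log2(TPM + 1) scale by 1.00 (limma adjusted p = 0.00112), with no overlap between groups, and it rose in each of the 12 alternatives that tested it, by 0.65 to 2.18. RGPD5 fell by 1.29, RGPD8 by 0.76 and RGPD6 by 0.68 on TPM, while RANBP2 fell by 2.20. RGPD5 was not called after size-factor scaling (-0.46), and RGPD6 rose there (0.52). Of the 75-base words of the longest RANBP2 transcript, 8.16% also occur in RGPD2 and 20.4% in a transcript of any other gene, so the division of reads among these genes is uncertain, and its part in the values was not tested.

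Several members have exons that overlap a neighbour on the other strand, and no source used here says whether strand was used. NUP88 shares 9.82% of its exonic bases with RPAIN, which had 16.78 and 14.75 TPM in JMC45, against 35.50 and 39.72 TPM in vehicle. RPAIN changed by -1.20 on TPM, against -2.65 for NUP88. NUP88 also shares 8.84% with RABEP1, which changed by -1.32. The largest such overlap was that of POM121, which shares 18.8% with NSUN5P2. NSUN5P2 had 0.29 and 0.17 TPM in JMC45, against 0 and 0 TPM in vehicle. NUP42 shares 13.0% with an antisense gene that had at most 0.11 TPM in any library. THOC6 shares 14.0% with HCFC1R1 (-0.40 on TPM and 0.89 with size factors), NUP62 shares 10.4% with ATF5 (-1.93) and NUP43 shares 5.03% with PCMT1 (-1.31).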
